A study of Mus musculus with 9 samples.

Results

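The subject is 40 interferon-stimulated genes in mouse liver, chosen as a list of gene symbols and read across 3 iron diets. The list holds transcription factors, sensors of nucleic acid, antiviral effectors, oligoadenylate synthetases, the ISG15 system, interferon-inducible GTPases, antigen processing genes, a chemokine and 7 other genes. All 40 symbols were in the count tables, which list 23420 genes, and all 40 were among the 13020 genes with enough reads to be tested. Liver RNA came from 9 male wild-type C57BL/6 mice on a soy-free AIN-93G diet, a purified rodent feed, that held 2.5 mg (low), 37.5 mg (sufficient) or 1000 mg (high) iron per kg. Feeding began at 5 weeks of age and lasted 50 days with 3 mice on each diet, and the liver was collected at 12 weeks. Hjv knockout mice, which the protocol also describes, are not analysed here. RNA was made from whole liver, in which fewer cells of a type and less RNA per cell cannot be told apart.

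Interferons are secreted proteins that signal through cell-surface receptors and the kinases Jak1 and Tyk2 to a complex that holds Stat2 and Irf9 and binds an interferon-stimulated response element in the promoters of their target genes. The targets sense foreign nucleic acid, block viral replication, tag proteins with ISG15 or present antigen, and several of them in turn feed back on the pathway. Cells transcribe many of these genes at a low level without infection, through weak constitutive interferon signalling, and in liver both hepatocytes and resident macrophages (Kupffer cells) can express them.

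The response element was looked for in RefSeq promoter windows (GRCm38.p6), which run from 250 bases before to 50 bases after a gene's start. A window was at hand for 31 of the 40 genes. The letters GAAANNGAAA, on either strand, stood in the windows of 17 of these 31 genes (54.8%), against 1079 of all 27025 genes with a window (3.99%). The letters TTCNNNGAA, the core of a gamma-activated site, stood in 6 of 31 (19.4%), against 9.55% of all genes; the search for each motif took no account of overlap with the other. Stretches before the start of 5 genes are shown, each in the direction of the gene's own transcription. In these genes the stretch with the element lay outside the gene's own annotated span. Among such genes of the 40, they had the lowest p in the test among the 3 diets. Overlap with other genes was not checked. Capitals mark the element on either strand, and where copies overlap the capitals run together.
Rsad2, chr12:26456538-26456597 (- strand): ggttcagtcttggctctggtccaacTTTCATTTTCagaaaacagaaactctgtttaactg
Ifit1, chr19:34640760-34640838 (+ strand): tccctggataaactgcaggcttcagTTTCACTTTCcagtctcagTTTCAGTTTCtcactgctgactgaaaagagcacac
Isg15, chr4:156200850-156200921 (- strand): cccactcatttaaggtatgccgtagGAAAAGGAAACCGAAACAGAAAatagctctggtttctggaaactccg
Irgm1, chr11:48871421-48871475 (- strand): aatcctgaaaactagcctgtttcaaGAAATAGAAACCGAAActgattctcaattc
Oas3, chr5:120777700-120777759 (- strand): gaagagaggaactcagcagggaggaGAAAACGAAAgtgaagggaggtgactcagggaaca

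Rsad2 carries 1 copy read on the opposite strand, 111 to 120 bases before its start. Ifit1 carries 2 copies on the opposite strand. In Isg15, 3 copies on the gene's own strand overlap, between 57 and 78 bases before the start, and in Irgm1 a pair of overlapping copies lies 15 to 30 bases before it. Oas3 carries 1 copy, 66 to 75 bases before its start. A match of letters is a description and does not show that a factor binds there. Likewise, an element outside the window or with other letters would be missed. For high against sufficient iron, the median log2 fold change was -0.86 over the 17 genes with these letters and -0.74 over the 14 without them. Over the 9 genes with no window it was -0.64. For low against sufficient iron these medians were -0.62, -0.45 and -0.55, in that order.

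The libraries held 22 M to 33.8 M (mega) reads on genes, and reads of the 40 genes made up 0.0376% to 0.127% of them. Rn45s, the ribosomal RNA precursor, took 43.7% of gene reads in low-iron library 1 and 40.5% in high-iron library 12, against 12.5% to 23.8% in the other 7 libraries. Hepatocyte markers such as Alb summed to 44400 to 68700 CPM, so the libraries carry the transcripts that define liver. CPM are the reads of a gene divided by the gene reads of its library in M, after TMM scaling of the library sizes. Values of 3 livers are given in the order of the libraries' title numbers, which are 1, 5 and 9 for low iron, 2, 6 and 10 for sufficient iron and 4, 8 and 12 for high iron. Adjusted p-values come from edgeR's quasi-likelihood test with Benjamini-Hochberg adjustment over all 13020 tested genes, and a gene passed at 0.05. The groups of 2 diets do not overlap for a gene where every CPM value of one lies below every value of the other.

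All 40 genes were lower on average in high-iron than in sufficient-iron livers, and 38 of 40 were lower in low-iron than in sufficient-iron livers. Only Rsad2 and Cmpk2 passed the test, both lower under high iron. The median log2 fold change of the 40 genes was -0.81 for high against sufficient iron, with a range of -1.94 to -0.06, while the median of all tested genes was -0.01. For low against sufficient iron it was -0.55, with a range of -1.18 to 0.15, beside 0.00 for all tested genes. Both comparisons use the same 3 sufficient-iron livers, so their fold changes are not independent of each other.

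For high against sufficient iron, 2 of 40 genes were lower at the adjusted threshold, against 0.115% of all tested genes. At an unadjusted p below 0.05, 28 of 40 were lower, against 5.12% of all tested genes, and none was higher. In 20 of 40 the groups did not overlap, with the high-iron livers lower, against 8.85% of all tested genes. The fold change was below 0 in 40 of 40, against 51.9%. DESeq2, another count test, called 13 of the 40 lower and none higher, where it called 129 of 13020 genes lower (0.991%).

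For low against sufficient iron, edgeR and limma-voom called none of the 40, and by either tool 0% of all tested genes were lower at the adjusted threshold. At an unadjusted p below 0.05, 15 of 40 were lower, against 5.41% of all tested genes, and none was higher. In 6 of 40 (Cmpk2, Irf7, Ddx60, Lgals3bp, Ddx58 and Oas2) the low-iron livers lay wholly below the sufficient-iron livers, against 7.83% of all tested genes. Fold changes were below 0 in 38 of 40, against 50.6%. DESeq2 called none either, and 0.0307% of all tested genes lower, but it gave 39 of the 40 genes no adjusted p in this comparison.

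For high against low iron, edgeR called none of the 40, where 0.346% of all tested genes were lower. At an unadjusted p below 0.05, 7 of 40 were lower (Rsad2, Cmpk2, Ifit1, Ifit3, Isg15, Herc6 and Dhx58), against 5.44% of all tested genes, and 1 was higher (Oas2). The groups did not overlap, with high iron lower, in 7 of 40, against 8.15% of all tested genes. In 33 of 40 the fold change was below 0, against 51.2%, and the median was -0.18. That count was 20 of 40, with a median of 0.02, without low-iron library 9, and 25 of 40 without high-iron library 4. DESeq2 called 3 of the 40 lower in this comparison, namely Rsad2, Ifit1 and Ifit3, beside 1.88% of all tested genes. The limma-voom test called none of the 40 and 0.323% of all tested genes lower.

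In the test of any difference among the 3 diets, Rsad2 alone passed, with an adjusted p of 0.0432, against 0.215% of all tested genes. At an unadjusted p below 0.05 there were 28 of 40, against 10.7% of all tested genes. The diet means stood in the order high below low below sufficient in 30 of 40 genes, an order held by 15.6% of all tested genes. A further 8 genes had low iron lowest and sufficient iron highest, and Bst2 and Ifi35 had high iron lowest and low iron highest. No gene of the 40 had its highest mean under high iron.

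**Figure D1:**
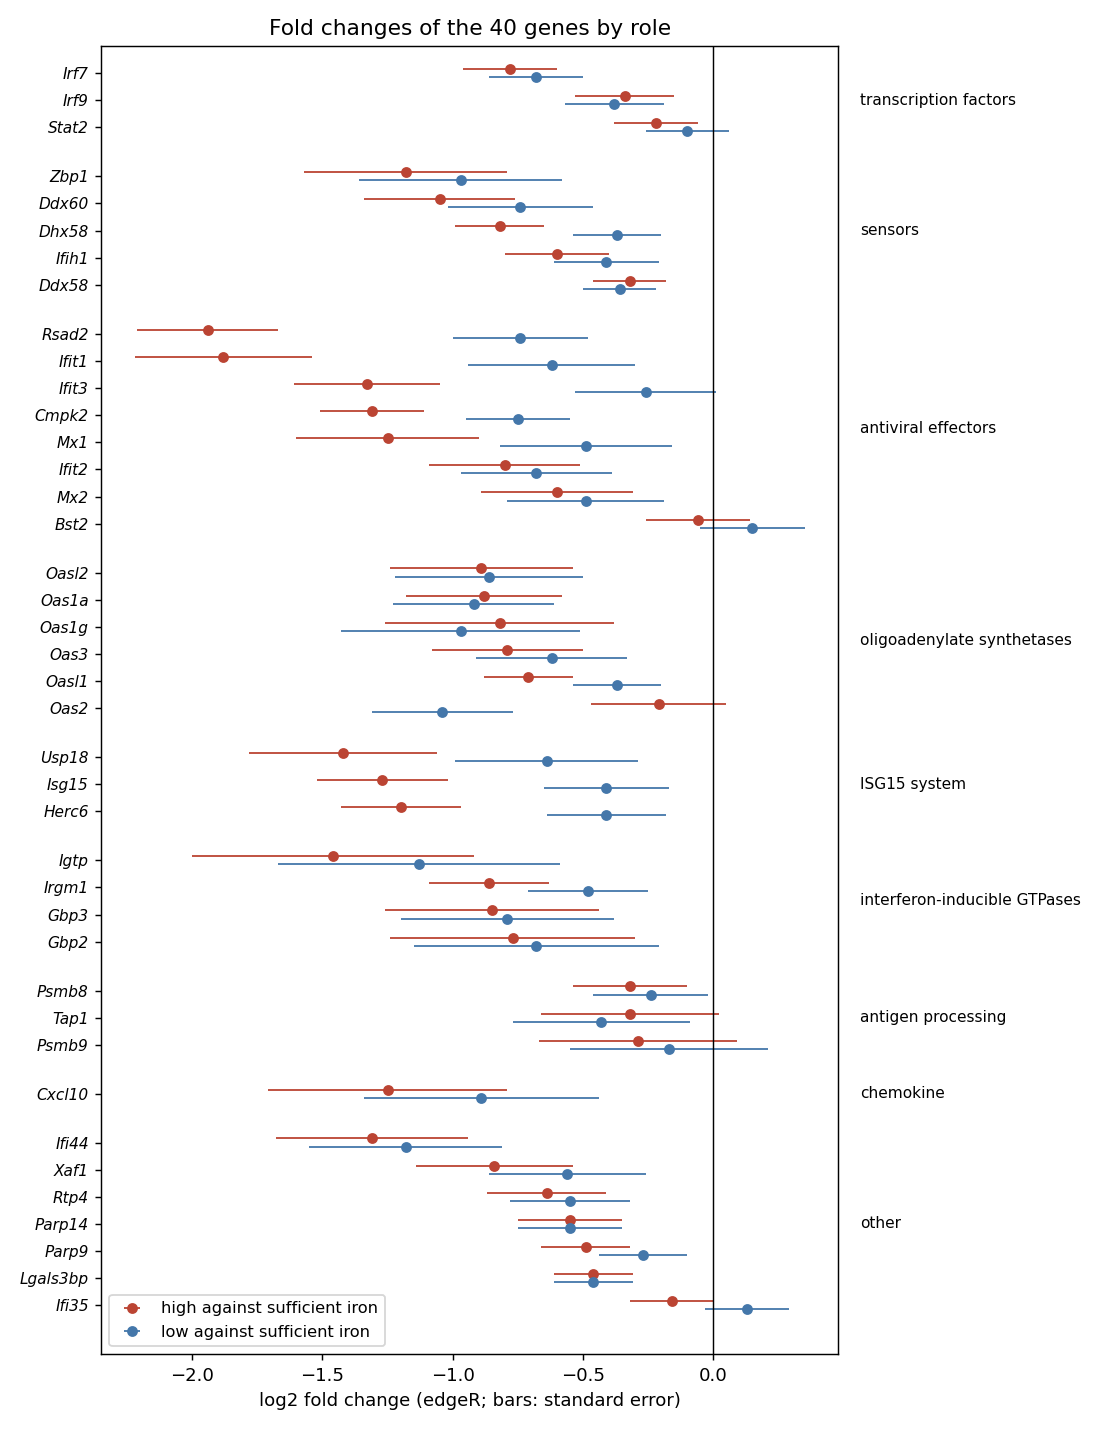
Log2 fold changes (x axis, with standard errors) of the 40 genes, grouped by role down the page, for high against sufficient iron and for low against sufficient iron. All 40 high-iron points lie left of 0, from -1.94 for Rsad2 to -0.06 for Bst2, and 38 of 40 low-iron points do.

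The antiviral effectors had the lowest median fold change of the roles for high against sufficient iron, though by a narrow margin. On the log2 scale the ISG15 system had a median of -1.27 and the chemokine -1.25. Within the effectors the changes ran from -1.94 to -0.06. Between high and sufficient iron, 2 of the 8 effectors passed the test as lower, beside 0.115% of all tested genes. At an unadjusted p below 0.05, 6 were lower, beside 5.12% of all tested genes. The median log2 fold change of the 8 was -1.28. Rsad2 encodes viperin, which turns CTP into a chain terminator of viral RNA synthesis. Rsad2 had 7.33, 12.9 and 16.2 CPM in low-iron livers, 15, 21.6 and 25 CPM in sufficient-iron livers and 5.68, 5.32 and 5.07 CPM in high-iron livers. The high-iron livers lay close together and below all 6 others, and low iron overlapped sufficient iron. Rsad2 averaged 5.36 ± 0.307 CPM in high-iron livers and 20.5 ± 5.05 CPM in sufficient-iron livers (SD, n = 3 each), and the change on the log2 scale was -1.94 (SE 0.27, adjusted p = 0.0314). Against low-iron livers, at 12.2 ± 4.47 CPM, the change was -1.20 (SE 0.27, adjusted p = 0.089), which does not pass.

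Cmpk2 encodes a mitochondrial nucleotide kinase that makes CDP and CTP precursors, and is the neighbour of Rsad2: the annotation (GRCm38) puts Rsad2 at chr12:26442743-26456452 and Cmpk2 at chr12:26469117-26479837, 12.7 kb apart on opposite strands. For Cmpk2, low-iron livers held 4.84, 7.32 and 7.37 CPM, sufficient-iron livers 8.34, 11.9 and 12.9 CPM and high-iron livers 4.58, 4.53 and 4.22 CPM. The 3 diets formed separate ranges, with high iron lowest and sufficient iron highest. Cmpk2 fell to 4.44 ± 0.196 CPM in the high-iron group, against 11 ± 2.4 CPM under sufficient iron (SD, n = 3 each), with a log2 change of -1.31 (SE 0.20, adjusted p = 0.0341). Low iron against sufficient iron gave -0.75 (SE 0.20, adjusted p = 0.446). Both calls rest on few livers. Without any 1 of high-iron libraries 4, 8 or 12 or sufficient-iron libraries 6 or 10, neither gene passed. Adjusted p was then between 0.0669 and 0.208 for Rsad2 and between 0.099 and 0.222 for Cmpk2. Few of all tested genes were called lower in these runs. Without high-iron library 4, 8 or 12 they were 0 of 13197, 0 of 13164 and 2 of 13215. Without sufficient-iron library 6 or 10 they were 7 of 13092 and 3 of 13123. Over all alternatives the log2 change against sufficient iron ranged from -2.11 to -1.78 for Rsad2 and from -1.48 to -1.2 for Cmpk2. The Cmpk2 call also ended without low-iron library 5 (adjusted p = 0.056) or 9 (0.0517), and without the 2 libraries rich in Rn45s (0.0668), where Rsad2 still passed at 0.0294.

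The Ifit proteins bind viral RNA by its end and hold back its translation, and their genes sit together on chr19:34550550-34650009. Ifit1 was measured at 7.57, 7.86 and 14 CPM under low iron, 10.1, 13.9 and 21.5 CPM under sufficient iron and 2.71, 4.94 and 4.75 CPM under high iron. Ifit3 had 8.66, 6.99 and 12 CPM in low-iron livers, 7.58, 10.2 and 15.3 CPM in sufficient-iron livers and 3.51, 4.91 and 4.86 CPM in high-iron livers. For both genes high iron lay below all 6 other livers, and low iron overlapped sufficient iron. The high-iron change against sufficient iron was -1.88 (SE 0.34, adjusted p = 0.0634) for Ifit1, whose promoter letters are shown above, and -1.33 (SE 0.28, adjusted p = 0.113) for Ifit3. Reads that Ifit3 shares with its near copy I830012O16Rik were left out of the counts, so its level is uncertain. For Ifit2, low-iron livers held 3.12, 4.9 and 6.91 CPM, sufficient-iron livers 5.79, 9.6 and 9.05 CPM and high-iron livers 4.85, 3.62 and 5.77 CPM. Ifit2 was below the sufficient range under high iron, at -0.80 (SE 0.29, adjusted p = 0.456), and overlapped it under low iron.

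Mx1 and Mx2 belong to a family of dynamin-like GTPases that can trap viral ribonucleoprotein, although the Mx1 protein of C57BL/6 mice is known to be defective. Whether these mice make a working Mx2 protein was not tested. Mx1 was measured at 1.01, 0.805 and 1.44 CPM under low iron, 1.24, 1.31 and 2.07 CPM under sufficient iron and 0.435, 0.818 and 0.694 CPM under high iron. Mx2 had 1.95, 2.23 and 2.4 CPM in low-iron livers, 2, 2.74 and 4.55 CPM in sufficient-iron livers and 1.71, 2.49 and 1.92 CPM in high-iron livers. The high-iron values lay below sufficient iron for Mx1, with a change of -1.25 (SE 0.35, adjusted p = 0.251), and the 2 diets overlapped for Mx2, at -0.60 (SE 0.29, adjusted p = 0.561). The pair are paralogs and neighbours on chromosome 16, and their counts carry the same uncertainty. Bst2, or tetherin, which holds budding virions at the cell surface, had the smallest change of the 8. For Bst2, low-iron livers held 150, 101 and 115 CPM, sufficient-iron livers 116, 113 and 101 CPM and high-iron livers 94, 138 and 83.7 CPM. Bst2 overlapped among all 3 diets, with changes of -0.06 for high and 0.15 for low against sufficient iron, and the first of these turned to 0.02 without high-iron library 4 and to 0.08 without library 12.

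**Figure D2:**
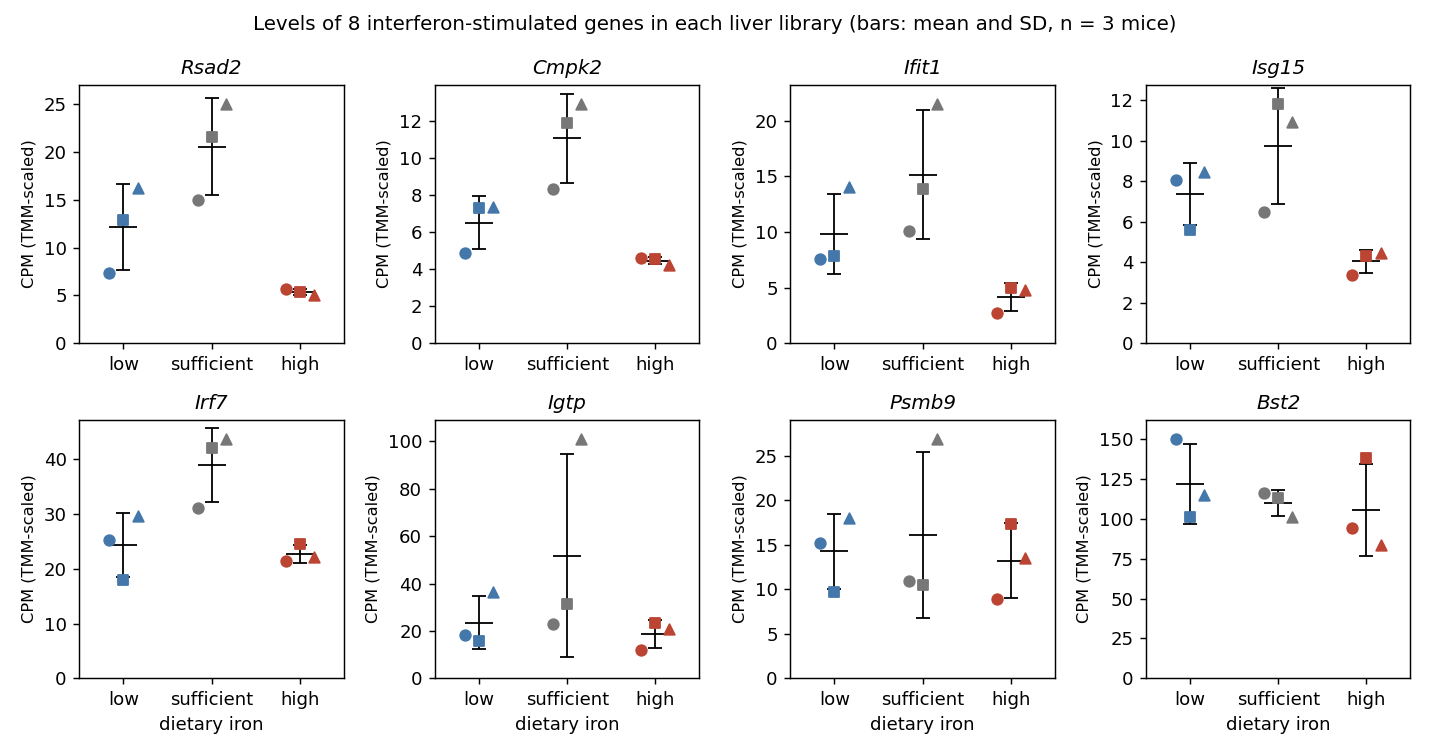
CPM (y axis, from 0) of 8 of the genes in each liver, by dietary iron; bars are the mean and SD of 3 mice, and marker shapes are consecutive sets of title numbers (circles 1, 2 and 4, squares 5, 6 and 8, triangles 9, 10 and 12). High-iron livers lie below all others for Rsad2, Cmpk2, Ifit1 and Isg15, the sufficient-iron value of Igtp reaches 101 CPM in 1 liver, and Psmb9 and Bst2 overlap among diets.

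All 3 genes of the ISG15 system were lower under high than under sufficient iron at an unadjusted p below 0.05 without overlap of the groups. Of all tested genes, 5.12% were lower at that p and 8.85% were lower without overlap. None of the 3 passed the adjusted test. Isg15 is a small ubiquitin-like protein joined to newly made proteins. Isg15 was measured at 8.04, 5.6 and 8.46 CPM under low iron, 6.45, 11.8 and 10.9 CPM under sufficient iron and 3.38, 4.31 and 4.43 CPM under high iron. The high-iron livers were lowest, with a change against sufficient iron of -1.27 (SE 0.25, adjusted p = 0.0854) and against low iron of -0.86 (SE 0.25, adjusted p = 0.202). Herc6 is the main ligase that attaches ISG15 in mouse. Herc6 had 9.28, 14.1 and 15.8 CPM in low-iron livers, 13.8, 20.9 and 17.7 CPM in sufficient-iron livers and 7.46, 6.1 and 9.51 CPM in high-iron livers. High iron lay below sufficient iron and just overlapped low iron, at -1.20 (SE 0.23, adjusted p = 0.0851) and -0.79 (SE 0.23, adjusted p = 0.21). Usp18 removes ISG15 and also blocks the interferon receptor. For Usp18, low-iron livers held 5.85, 5.16 and 11.8 CPM, sufficient-iron livers 7.58, 13.6 and 14.5 CPM and high-iron livers 3.04, 5.1 and 5.34 CPM. Its high-iron change against sufficient iron was -1.42 (SE 0.36, adjusted p = 0.2). Against sufficient iron, low iron gave smaller differences that overlapped in all 3 genes, from -0.64 to -0.41.

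Sensors of viral nucleic acid were lower under high than under sufficient iron in 5 of 5 genes at an unadjusted p below 0.05. Of all tested genes 5.12% were, and 0 sensors passed the adjusted test. Ifih1 (MDA5) and Ddx58 (RIG-I) detect viral RNA in the cytoplasm, and Dhx58 (LGP2) tunes their response. Ifih1 was measured at 20.7, 32.3 and 36.8 CPM under low iron, 33.1, 45.3 and 41.4 CPM under sufficient iron and 25.4, 22.9 and 30.8 CPM under high iron. Ddx58 had 24.9, 26.3 and 29.2 CPM in low-iron livers, 29.5, 35.8 and 37.9 CPM in sufficient-iron livers and 24.1, 25.7 and 32.8 CPM in high-iron livers. For Dhx58, low-iron livers held 8.43, 9 and 9.27 CPM, sufficient-iron livers 9.22, 13.8 and 11.4 CPM and high-iron livers 5.42, 7.42 and 6.73 CPM. Sufficient-iron livers were the highest group on average for each of the 3. Dhx58 had the lowest p of the sensors, at -0.82 (SE 0.17, adjusted p = 0.112) for high against sufficient iron, and its high-iron livers also lay below the low-iron ones. Ifih1 gave -0.60 (SE 0.20, adjusted p = 0.413) and Ddx58 -0.32 (SE 0.14, adjusted p = 0.535) in the same comparison. Zbp1 binds left-handed nucleic acid and can start cell death. Zbp1 was measured at 2.65, 2.89 and 4.65 CPM under low iron, 3.17, 6.35 and 10.7 CPM under sufficient iron and 2.54, 3.59 and 2.78 CPM under high iron. The Zbp1 groups overlapped, since sufficient-iron library 2 was close to the other diets, and the high-iron change was -1.18 (SE 0.39, adjusted p = 0.392). Ddx60, a helicase linked to RIG-I-like signalling, ranged from 2.24 to 7.11 CPM over the 9 livers and was below the sufficient range under both other diets, at -1.05 for high and -0.74 for low iron.

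Of the 6 oligoadenylate synthetases, 4 had their lowest mean under low iron (Oas1a, Oas1g, Oas2 and Oasl2). When they bind double-stranded RNA, Oas1a, Oas2 and Oas3 make a short oligoadenylate that activates RNase L. The median log2 fold change of the 6 genes was -0.80 for high and -0.89 for low against sufficient iron, and 0.00 between high and low iron. Oas2 had 0.546, 1.21 and 1.02 CPM in low-iron livers, 1.82, 2.14 and 2.01 CPM in sufficient-iron livers and 1.44, 1.92 and 1.82 CPM in high-iron livers. Low-iron livers were wholly below both other diets for Oas2, with changes of -1.04 (SE 0.27, adjusted p = 0.446) against sufficient iron and, for high against low iron, 0.83 (SE 0.28, adjusted p = 0.305). High against sufficient iron gave -0.21, with overlap.

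For Oas1a, low-iron livers held 0.702, 1.13 and 1.48 CPM, sufficient-iron livers 1.46, 2.46 and 2.54 CPM and high-iron livers 1.17, 1.04 and 1.34 CPM. Oas3 was measured at 1.64, 1.24 and 1.83 CPM under low iron, 1.64, 3.2 and 2.35 CPM under sufficient iron and 1.47, 1.1 and 1.66 CPM under high iron. Both were low in reads, and sufficient iron was highest on average. Oas1a gave -0.88 (SE 0.30, adjusted p = 0.418) for high and -0.92 (SE 0.31, adjusted p = 0.446) for low against sufficient iron. Oas3 gave -0.79 (SE 0.29, adjusted p = 0.458) for high against sufficient iron. Oas1g, a close copy of Oas1a, had 2 to 33 reads per library, and its counts cannot be separated firmly from those of its copies. Oasl1, which in mouse represses the translation of Irf7, had its lowest mean under high iron, as Oas3 did. Oasl1 had 11.2, 9.44 and 10.8 CPM in low-iron livers, 10.6, 13.5 and 16.5 CPM in sufficient-iron livers and 9.1, 7.74 and 8.01 CPM in high-iron livers. Its changes were -0.71 (SE 0.17, adjusted p = 0.168) for high against sufficient iron and -0.34 for high against low iron, both without overlap. For Oasl2, low-iron livers held 2.11, 3.62 and 4.83 CPM, sufficient-iron livers 4.01, 7.8 and 7.84 CPM and high-iron livers 2.98, 2.64 and 5.23 CPM. Oasl2 averaged 3.52 ± 1.36 CPM under low, 6.55 ± 2.2 CPM under sufficient and 3.62 ± 1.41 CPM under high iron (SD, n = 3 each), and all 3 diets overlapped.

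Of the 3 transcription factors, Irf7 had low-iron and high-iron livers wholly below the sufficient-iron livers, and Irf9 and Stat2 did not. Irf7 drives the genes of type I interferon and is itself an interferon target. Irf7 was measured at 25.3, 18 and 29.6 CPM under low iron, 31.2, 42.1 and 43.7 CPM under sufficient iron and 21.5, 24.6 and 22.1 CPM under high iron. Its change was -0.78 (SE 0.18, adjusted p = 0.168) for high and -0.68 (SE 0.18, adjusted p = 0.446) for low against sufficient iron, while high against low iron gave -0.10. Irf9 and Stat2 belong to the complex that binds the response element. Irf9 had 20.8, 24.4 and 29.9 CPM in low-iron livers, 25.5, 30.1 and 42.7 CPM in sufficient-iron livers and 23, 28.8 and 25.8 CPM in high-iron livers. For Stat2, low-iron livers held 56.6, 40.2 and 41.6 CPM, sufficient-iron livers 48.8, 42.7 and 56.7 CPM and high-iron livers 37.9, 48.6 and 40.8 CPM. Both overlapped among the diets, with high-iron changes of -0.34 (SE 0.19, adjusted p = 0.609) for Irf9 and -0.22 (SE 0.16, adjusted p = 0.676) for Stat2.

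Interferon-inducible GTPases, which attack the vacuoles of intracellular microbes, had a median change of -0.85 for high against sufficient iron. At an unadjusted p below 0.05, 2 of the 4 were lower, beside 5.12% of all tested genes. Igtp was measured at 18.3, 15.7 and 36.6 CPM under low iron, 23, 31.5 and 101 CPM under sufficient iron and 12.1, 23.4 and 21 CPM under high iron. Sufficient-iron library 10 was the highest of all for Igtp, and the high-iron change of -1.46 (SE 0.54, adjusted p = 0.473) moved to -0.55 without it. Irgm1 had 38.8, 48.4 and 62.2 CPM in low-iron livers, 49, 64.3 and 94.8 CPM in sufficient-iron livers and 33.9, 39.5 and 41.7 CPM in high-iron livers. Every high-iron liver lay below every sufficient-iron liver for Irgm1, with -0.86 (SE 0.23, adjusted p = 0.245), and the order of the sufficient-iron livers was that of Igtp. For Gbp2, low-iron livers held 2.11, 4.21 and 9.37 CPM, sufficient-iron livers 4.85, 11 and 10.1 CPM and high-iron livers 3.21, 5.79 and 6.41 CPM. Gbp3 was measured at 3.2, 5.49 and 10.7 CPM under low iron, 6.56, 11.6 and 16.1 CPM under sufficient iron and 4.48, 6.86 and 7.8 CPM under high iron. Gbp2 and Gbp3, guanylate-binding proteins from a cluster of similar genes on chromosome 3, overlapped in every comparison, with -0.77 and -0.85 for high against sufficient iron.

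Antigen processing genes had a median change of -0.32 for high against sufficient iron, the nearest to 0 of the roles. Psmb8 and Psmb9 are catalytic subunits of the immunoproteasome, Tap1 is a subunit of the peptide transporter into the endoplasmic reticulum, and the 3 genes lie together at chr17:34182030-34201454. Psmb8 had 17.6, 13.3 and 20 CPM in low-iron livers, 16.8, 17 and 26.2 CPM in sufficient-iron livers and 12.5, 18.9 and 16.6 CPM in high-iron livers. For Psmb9, low-iron livers held 15.2, 9.69 and 18 CPM, sufficient-iron livers 10.9, 10.5 and 26.9 CPM and high-iron livers 8.86, 17.3 and 13.5 CPM. Tap1 was measured at 18.6, 15.7 and 25.3 CPM under low iron, 17.1, 19.7 and 43.5 CPM under sufficient iron and 15, 24.4 and 24.9 CPM under high iron. Sufficient-iron library 10 was the highest of all 9 livers for each, and the other 2 sufficient-iron livers lay within the range of the remaining diets. The high-iron changes were -0.32 (SE 0.22, adjusted p = 0.661), -0.29 (SE 0.38, adjusted p = 0.811) and -0.32 (SE 0.34, adjusted p = 0.757) in that order, and 0 of 3 was lower at an unadjusted p below 0.05. Without sufficient-iron library 10, the high-iron change of Psmb9 was 0.30 and that of Tap1 was 0.21.

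The chemokine Cxcl10 draws T cells through the receptor Cxcr3. Cxcl10 had 2.89, 1.98 and 6.27 CPM in low-iron livers, 3.21, 10.7 and 6.9 CPM in sufficient-iron livers and 2.78, 3.37 and 2.62 CPM in high-iron livers. Within the sufficient and the low diet its highest liver had over 3 times the level of its lowest, and the high-iron change against sufficient iron was -1.25 (SE 0.46, adjusted p = 0.458). Of the 7 other genes, 6 were lower under high than under sufficient iron at an unadjusted p below 0.05, beside 5.12% of all tested genes. Lgals3bp, a secreted glycoprotein, had the highest level per kb of them. For Lgals3bp, low-iron livers held 51.6, 56.7 and 65.2 CPM, sufficient-iron livers 65.5, 97.1 and 76.4 CPM and high-iron livers 53.3, 59.6 and 60.4 CPM. High and low iron overlapped and both lay below sufficient iron, at -0.46 (SE 0.15, adjusted p = 0.392) and -0.46 (SE 0.15, adjusted p = 0.446).

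Ifi44 was measured at 2.26, 2.85 and 5.22 CPM under low iron, 4.85, 10 and 9.08 CPM under sufficient iron and 2.31, 2.8 and 4.75 CPM under high iron. Rtp4 had 7.8, 10.1 and 13.5 CPM in low-iron livers, 11.9, 14.3 and 20.2 CPM in sufficient-iron livers and 9.1, 9.09 and 11.8 CPM in high-iron livers. For Ifi44 and for Rtp4, a chaperone of receptor traffic, the high-iron livers were below the sufficient-iron ones, and low iron overlapped both. The high-iron changes were -1.31 (SE 0.37, adjusted p = 0.269) and -0.64 (SE 0.23, adjusted p = 0.458), and Ifi44 had the lowest low-iron change of the 40 genes, at -1.18 (SE 0.37, adjusted p = 0.446). For Xaf1, low-iron livers held 3.82, 3.26 and 5.15 CPM, sufficient-iron livers 3.64, 6.17 and 8.17 CPM and high-iron livers 2.57, 3.52 and 4.06 CPM. Parp14 was measured at 24.2, 27.6 and 39 CPM under low iron, 35.2, 47.6 and 50.7 CPM under sufficient iron and 27.7, 27.1 and 36.5 CPM under high iron. Xaf1, known to favour apoptosis, and Parp14, an ADP-ribosyltransferase, overlapped between high and sufficient iron, at -0.84 and -0.55. Parp9, the neighbour of Parp14, ranged from 31.8 to 55.9 CPM, with -0.49 for high against sufficient iron. Ifi35 ranged from 11.8 to 21.1 CPM and gave -0.16 for high and 0.13 for low iron.

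Levels per length spanned a wide range. In sufficient-iron livers, CPM per kb of exon ran from 139 for Bst2, 34.2 for Lgals3bp and 30.1 for Irgm1 down to 0.455 for Mx1 and 0.284 for Oas1g. Rsad2 had 1.42 CPM per kb in high-iron livers and 5.43 in sufficient-iron livers, and Cmpk2 had 1.39 and 3.45 CPM per kb under high and sufficient iron. The 40 genes lie on 14 chromosomes, and 20 of them fall into 8 clusters whose genes are within 100 kb of each other.

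The 3 livers of a diet differed in the same direction for most of the genes. To set each liver beside the others, the log2 CPM of a gene was taken minus its mean over the 9 livers, and the median over the 40 genes was the level of that liver. The levels were -0.36, -0.19 and 0.24 in low-iron livers, 0.03, 0.57 and 0.78 in sufficient-iron livers, and -0.48, -0.27 and -0.12 in high-iron livers. All 3 high-iron livers were below all 3 sufficient-iron livers, whereas low-iron library 9 lay above sufficient-iron library 2. Sufficient-iron library 10 was the highest of all livers for 25 genes and library 6 for 13. Within its diet, library 2 was lowest for 36 genes and low-iron library 9 highest for 34. The median fold change for high against sufficient iron was -0.62 without sufficient-iron library 10 and -0.70 without library 6, with 19 genes lower at an unadjusted p below 0.05 in either case in place of 28. For low against sufficient iron, that count was 7 in place of 15 without sufficient-iron library 10 or low-iron library 5. It was 8 without low-iron library 1 and 9 without sufficient-iron library 6. It was 26 without low-iron library 9 and 30 without sufficient-iron library 2. With livers left out, the shares of all tested genes at that unadjusted p were not worked out.

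**Figure D3:**
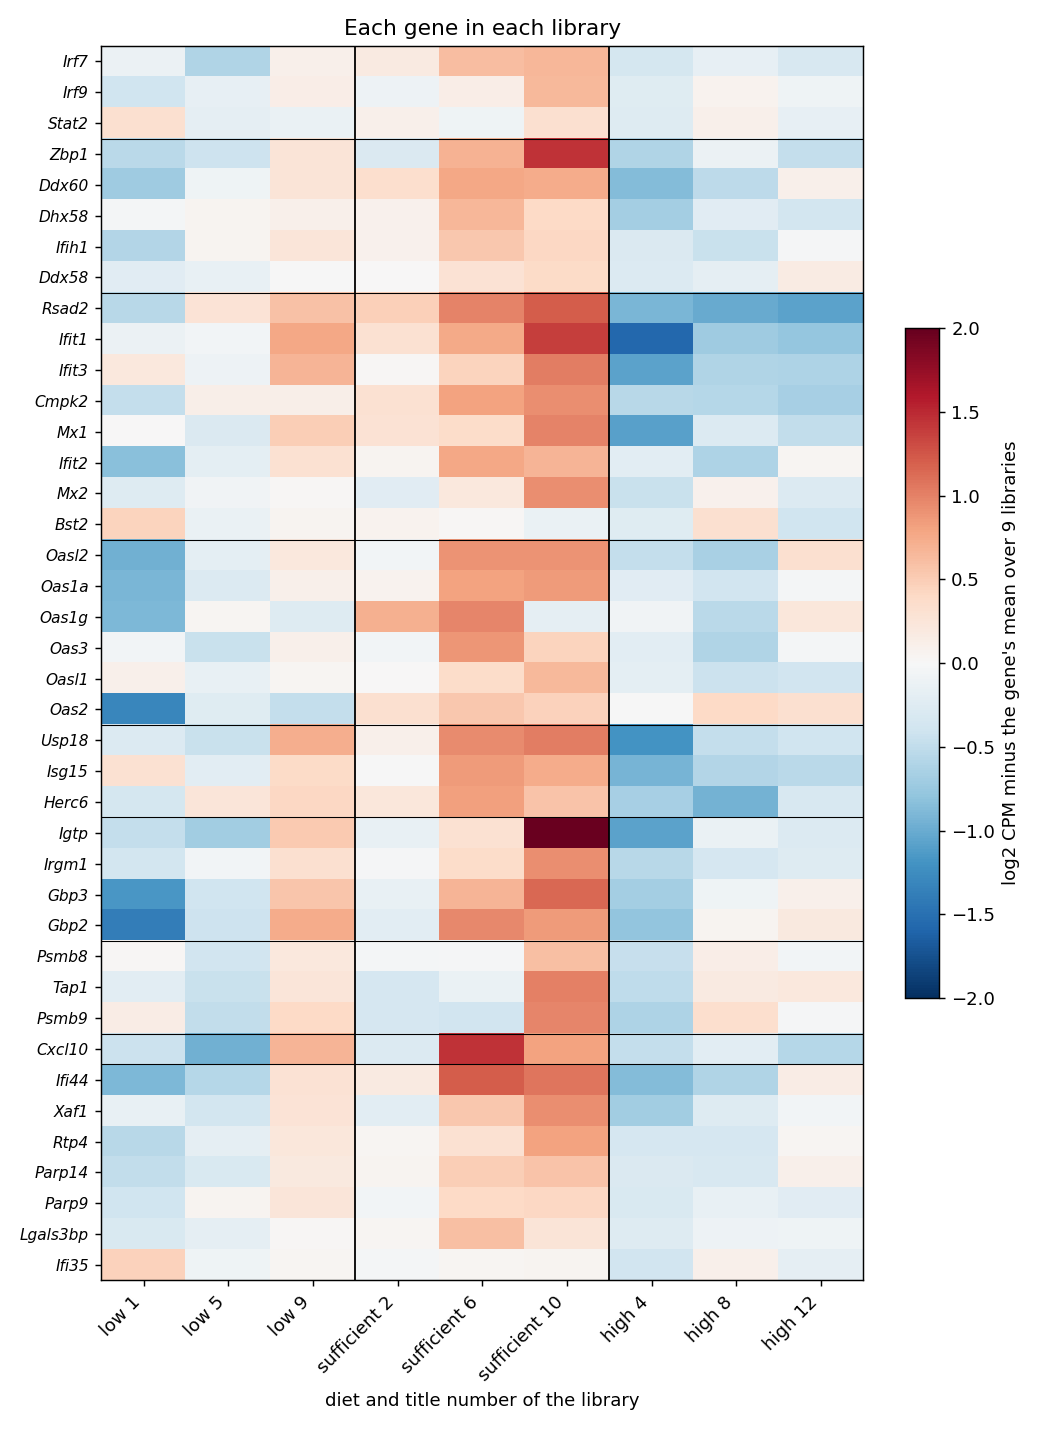
Log2 CPM of each of the 40 genes minus its mean over the 9 livers (colour, clipped at 2 either way), with genes grouped by role down the page and livers by diet across it. Sufficient-iron libraries 6 and 10 are the highest for most genes, and high-iron library 4 and low-iron library 1 are the lowest for 18 and 14 genes.

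Genes upstream of these targets passed the test in no comparison. Of 40 genes for interferons, receptors, kinases, factors, sensors and their regulators, 29 had enough reads to be tested, and 0 passed edgeR's test in either direction. At an unadjusted p below 0.05, 4 of the 29 were lower for high and 6 for low against sufficient iron, beside 5.12% and 5.41% of all tested genes, and none was higher. The interferon genes Ifnb1, Ifna1, Ifna2, Ifna4, Ifna5, Ifne, Ifnl2 and Ifnl3 had 0 reads in all 9 libraries, and Ifng had 8 and Ifnk 29 reads over all of them. Reads with several alignments or several genes were left out of the counts. The globin genes Hba-a1, Hba-a2, Hbb-b1 and Hbb-b2 also had 0 reads in every library. A count of 0 therefore does not show that a transcript was absent. The receptor genes Ifnar1 and Ifnar2 gave 0.10 and 0.13 for high and 0.00 and 0.16 for low against sufficient iron, and the kinase genes Jak1 and Tyk2 gave -0.21 and 0.09 for high and -0.26 and -0.14 for low. The upstream gene with the lowest p for high against sufficient iron was Irf5, a macrophage-rich factor, at -0.78 (adjusted p = 0.10).

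A further 73 interferon-stimulated genes outside the 40 were all tested, and 0 passed in the high or the low comparison with sufficient iron. Their median log2 fold change was -0.45 for high against sufficient iron, with 69 of 73 below 0 and 23 lower at an unadjusted p below 0.05, beside 5.12% of all tested genes. For low against sufficient iron the median was -0.43, with 62 below 0 and 17 lower at that unadjusted p, beside 5.41% of all tested genes. Tor3a had the lowest p, with 8.27, 6.47 and 6.24 CPM in low-iron livers, 11.2, 15.1 and 10.2 CPM in sufficient-iron livers and 6.72, 4.81 and 4.65 CPM in high-iron livers. Its high-iron change was -1.17 (adjusted p = 0.058). Ifi27l1 gave -0.63, Gbp6 -1.78 and Apol9a -1.46, with adjusted p of 0.136, 0.200 and 0.205.

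Markers of other cells moved with part of this pattern. The 12 Kupffer cell markers, none of them at 0 reads, summed to 134 to 319 CPM in low-iron livers, 310 to 492 CPM in sufficient-iron livers and 265 to 336 CPM in high-iron livers. Their median log2 fold change was -0.44 for high and -0.68 for low against sufficient iron, and 0.21 for high against low iron, where the 40 genes had -0.18. Per liver, the Kupffer level was -1.21, -0.02 and 0.12 under low iron, 0.69, 0.33 and 0.16 under sufficient iron and -0.15, -0.11 and 0.18 under high iron. Among the sufficient-iron livers, library 2 was the highest for Kupffer markers and the lowest for the 40 genes. Other lists ranked these 3 livers differently. In libraries 2, 6 and 10, monocyte and neutrophil markers stood at 0.18, 1.01 and 0.35, lowest in library 2. The 2 tested plasmacytoid dendritic cell markers, Siglech and Tcf4, stood at 0.1, 0.55 and 0.4, also lowest in library 2. Siglech had only 90 reads over all libraries, so the level of this list is uncertain. T and NK cell markers, at 0.02, -0.24 and 0.46, were lowest in library 6. The 7 monocyte and neutrophil markers summed to 17.5 to 34.7 CPM under low iron, 37.9 to 72.8 CPM under sufficient iron and 35.6 to 43.1 CPM under high iron, and their median change against sufficient iron was -0.59 for high and -0.99 for low iron, with 7 of 7 below 0 in both. For low against sufficient iron, hepatocyte markers were above 0 in 7 of 7 with a median of 0.33, while sinusoidal endothelial markers were below 0 in 7 of 7 (median -0.31) and stellate markers in 6 of 6 (median -0.35). For high against sufficient iron these medians were -0.05 for hepatocyte, -0.11 for endothelial and -0.19 for stellate markers. Of 11 T and NK cell markers in the tables, 9 were tested, and the list summed to 2.6 to 6.38, 4.28 to 5.66 and 3.01 to 5.25 CPM under low, sufficient and high iron. The part of these cells in the fold changes of the 40 genes was not tested.

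**Figure D4:**
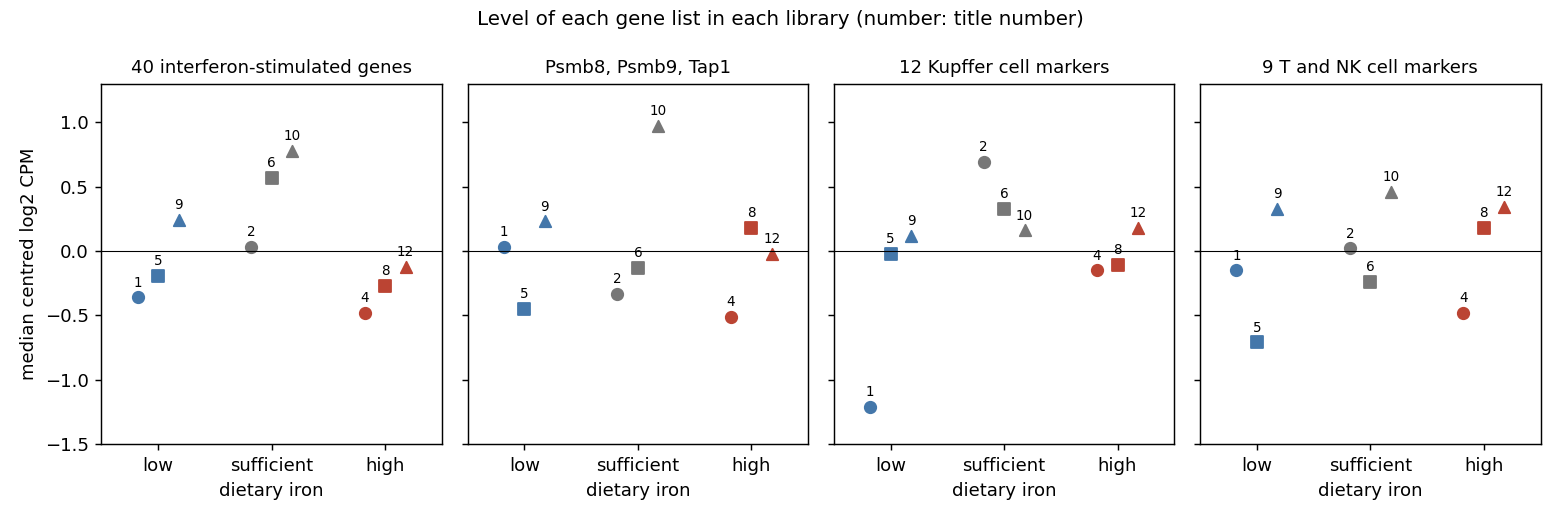
Level of 4 gene lists in each liver (y axis, median over the list of log2 CPM minus the gene's mean over 9 livers), by dietary iron, with the title number beside each point. The 40 genes were at 0.03, 0.57 and 0.78 in sufficient-iron livers, Psmb8, Psmb9 and Tap1 stood out in sufficient-iron library 10, and the Kupffer markers were lowest, at -1.21, in low-iron library 1.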

How the data were processed

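The authors deposited 1 table per liver, which gives the raw count of reads for each gene symbol. Per the labels' protocols, total RNA was isolated on RNeasy columns, libraries were made with a TruSeq kit and sequenced on a HiSeq instrument. The submitters' processing notes name FastQC, mm10 and mm9; which aligner and counter were used, and whether by strand, is not given in the sources used here. From each table, 5 category entries stayed out of library sizes, and they show that reads with several alignments or several genes were not counted to a gene.

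Tests were run with edgeR 4.0.16 in R 4.3.3 (filterByExpr, TMM, robust quasi-likelihood fit of all 9 libraries with diet as the term, 6 residual degrees of freedom). Each log2 fold change is given with its standard error (SE). Log2 CPM used a prior count of 2. The 9 mice are separate animals per the labels. The alternatives were DESeq2 1.42.0, limma-voom (limma 3.58.1), other scalings, filters and thresholds, a block of consecutive title numbers, and libraries left out; leaving out both Rn45s-rich libraries was chosen after seeing the data. The 40 genes, the gene lists and the rule for genes given in every liver (a choice by role) were set with earlier results of these data known. Promoters came from the RefSeq table and positions from a GRCm38 annotation matched by symbol. Printed promoters are those with the lowest p among 3 diets whose stretch with the element lay outside the gene's own annotated span.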

Additional observations from a re-analysis of the deposited data

How the results depend on the processing

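The direction of the median of the 40 genes held for high and for low against sufficient iron under every alternative run. Without single libraries the medians ranged from -0.99 to -0.62 for high and from -0.78 to -0.39 for low against sufficient iron, and from -0.32 to 0.02 for high against low iron. The count of genes lower under high than sufficient iron, 2 at the threshold of 0.05, was 5 at 0.1, 0 at 0.01 and 13 by DESeq2. It ranged from 0 to 3 without single libraries. Of all tested genes, DESeq2 called 0.991% lower. Without single libraries the number of all tested genes called lower ranged from 0 of 13197 to 27 of 13238. Leaving out both Rn45s-rich libraries kept the count at 2, with Herc6 in place of Cmpk2, beside 6 of 13217 tested genes. For high against low iron, the count of 0 was 1 at 0.1, 3 by DESeq2 and from 0 to 1 without single libraries. Of all tested genes, DESeq2 called 1.88% lower in this comparison. Without single libraries that number ranged from 0 of 13197 to 78 of 13092. At 0.1 and 0.01 the shares of all tested genes were not worked out. Among the 3 diets, the count of 1 was 2 with no filter, 2 with the title-number block, 0 with a filter at 1 CPM in 3 libraries, 0 by limma-voom, 0 without the Rn45s-rich libraries, 12 by DESeq2 and from 0 to 2 without single libraries. Shares of all tested genes were not worked out for the alternatives of the 3-diet test. The cause of these shifts was not tested.

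Without the Rn45s-rich libraries, Bst2 turned to 0.08 for high and to -0.02 for low against sufficient iron, and Ifi35 to -0.04 for low iron. Without single libraries, the high-iron change ranged from -0.31 to 0.08 for Bst2, from -0.54 to 0.30 for Psmb9 and from -0.56 to 0.21 for Tap1. The low-iron change ranged from -0.04 to 0.27 for Bst2, from -0.05 to 0.24 for Ifi35, from -0.41 to 0.41 for Psmb9, from -0.52 to 0.03 for Ifit3 and from -0.66 to 0.10 for Tap1. The diets share no replicate number in the labels, so livers were matched only by sets of consecutive title numbers, whose meaning the labels do not give. With these sets as a block, 3 of the 40 genes were lower under high than sufficient iron at the adjusted threshold, beside 17 of 13020 tested genes. Under low iron, 24 rather than 15 of the 40 were lower at an unadjusted p below 0.05. The share of all tested genes at that unadjusted p was not worked out with the block. With 3 livers a diet, leaving 1 out lowers the number of livers as well as removing its value, and genes such as Oas1g and Mx1, with few reads, are measured with wide errors.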

Other observations

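Livers with consecutive title numbers form 3 sets with 1 liver per diet (libraries 1, 2 and 4, then 5, 6 and 8, then 9, 10 and 12). In the first set the level of the 40 genes, as the median centred log2 CPM, was -0.36 under low, 0.03 under sufficient and -0.48 under high iron. In the second set it was -0.19, 0.57 and -0.27, and in the third set 0.24, 0.78 and -0.12, in the same order of diets. High iron was lowest and sufficient iron highest in each of the 3 sets. Since the high-iron and sufficient-iron levels do not overlap, high below sufficient iron holds under any matching, and the sets add nothing to it. Where low iron falls between them depends on the matching and was not tested. The labels do not say what the numbers stand for.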
